A study of Mus musculus with 8 samples.

Results

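The genes described here are 7 transcription factors of the primitive streak and of posterior identity, T (brachyury), Eomes, Mesp1, Mixl1, Evx1, Cdx1 and Cdx4, out of 20972 genes with a symbol on the array. They were chosen by name, through the RefSeq accession of each probe, and not by any measured value. Eomes has 2 probes and the other 6 genes have 1 each. The study hybridised RNA of mouse embryonic stem cells (ESCs) to 8 Agilent arrays, with 1 colour each, from 4 groups of 2. All groups, the untreated one included, grew in medium with LIF, which holds ESCs undifferentiated, and with 250 nM PD173074, an FGF receptor inhibitor. One group received 4-hydroxytamoxifen (250 nM 4OHT) for 8 h followed by the MEK inhibitor PD0325901 (1 µM) for 2 h. The others were untreated cells, 4OHT for 8 h and 4OHT for 10 h, without PD0325901. 4OHT activates proteins fused to a modified oestrogen receptor. The labels name neither such a protein nor the ESC line or clone, and do not say whether 4OHT remained during the inhibition. Per the series title the question was which transcripts depend on Erk, the kinase that MEK activates. Replicates are called biological in the design text without word of separate cultures, so the p-values measure only the spread between these samples.

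In the mouse embryo the primitive streak is the site where epiblast cells leave the epithelium and become mesoderm and endoderm. Nodal, WNT and BMP signals induce it, and FGF signalling through ERK is needed for mesoderm cells to form and move away from it. T marks the streak and the axial mesoderm, Eomes the early streak, Mesp1 the mesoderm that gives rise to the heart, Mixl1 the mesendoderm, Evx1 the posterior streak, and the Cdx factors the tail end of the embryo, where they control Hox genes.

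An array had 30218 to 37789 spots well above background out of 59305 without controls, fewer on every replicate 2 array than on any replicate 1 array. Replicates of a group correlated at r = 0.992 to 0.993 across genes, which are not independent replicates. All 10 ESC markers were well above background on all 8 arrays, though some of them changed with 4OHT, in both directions, as given below. Signals are given as percent of the 75th percentile of the signals on that array, and changes as differences in log2 signal between group means ± the standard error of a limma fit to all 8 arrays. A gene was called at an adjusted p under 0.05, and was tested only if some group measured its probe well above background on both of its arrays. T, Eomes, Mesp1, Evx1 and Cdx1 were tested, whereas Mixl1 and Cdx4 were not. Because a gene could pass through the group in which it was high, as T did, a count or a median among these 5 is a description.

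T, Eomes, Mesp1 and Evx1 rose after 8 h and after 10 h of 4OHT, by between 3.98-fold and 14.9-fold. Cdx1 was higher on every 4OHT array without being called in the main fit, and was called with the replicate number as a block. Eomes, Mesp1 and Evx1 fell when MEK was inhibited for the last 2 h, and T was lower without being called. The 22687 genes tested include 14493 with a symbol, and the others were array identifiers without one. Among all genes tested, 10.3% were called higher at 8 h and 13.0% at 10 h, and 2.83% were called lower after PD0325901 than at 10 h. The 4 members called higher of 5 tested at each 4OHT time, and the 3 called lower after PD0325901, are to be read against those shares. The median change of the 5 was 2.49 at 8 h and 2.08 at 10 h, beside −0.04 and −0.05 over all genes tested. The cultures were measured in bulk, so a change in the number of cells that express a gene and a change in the RNA per cell cannot be told apart.

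**Figure D1:**
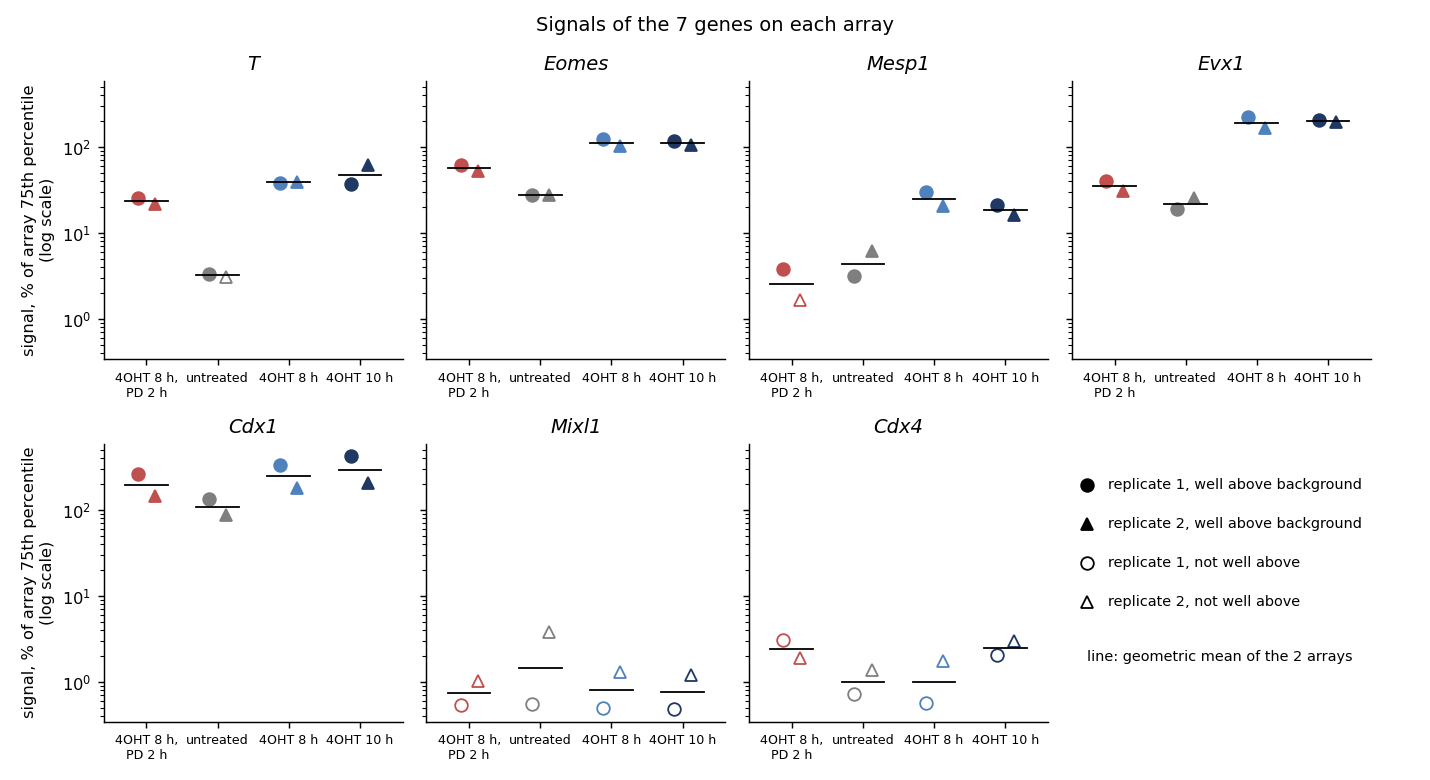
Signal of each of the 7 genes on each array, as percent of the array's 75th percentile on a log scale, by group; circles are replicate 1, triangles replicate 2, open symbols are not well above background and the line is the geometric mean. The arrays of T, Eomes, Mesp1, Evx1 and Cdx1 at 4OHT 8 h and 10 h lie above both untreated arrays. The share of all genes whose arrays separate in this way was not counted. Mixl1 and Cdx4 have open symbols throughout.

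T (NM_009309), the T-box factor brachyury, was close to background in untreated cells. Its signal was 3.37% and 3.08% of the 75th percentile on the untreated arrays, 38.5% and 39.5% after 8 h of 4OHT, and 36.8% and 62.3% after 10 h. The 2 untreated arrays lay far below all 4 arrays of the 4OHT times, and 1 of the 2 (replicate 1) was well above background. The change at 8 h was 3.60 ± 0.25 on the log2 scale, 12.1-fold (adjusted p = 0.000802). At 10 h it was 3.89 ± 0.25, 14.9-fold (adjusted p = 0.000494). With another background correction (normexp, a model of signal plus background with an offset) the rise was 1.44 at 8 h and 1.67 at 10 h, both still called.

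Eomes (NM_010136), the other T-box factor, was already expressed in untreated cells. Its brighter probe gave 27.9% on both untreated arrays, 123% and 102% after 8 h of 4OHT, and 117% and 105% after 10 h. The groups did not overlap, and the 4 arrays of the 4OHT times lay close together. The change was 2.01 ± 0.13 at 8 h, 4.02-fold (adjusted p = 0.000676), and 1.99 ± 0.13 at 10 h, 3.98-fold (adjusted p = 0.000516). The dimmer probe gave 3.42% and 2.81% in untreated cells, the second of these not well above background, 23.7% and 19.2% at 8 h, and 18.7% and 14.4% at 10 h. It thus moved the same way, by 2.78 ± 0.26 at 8 h (adjusted p = 0.00223) and 2.41 ± 0.26 at 10 h (adjusted p = 0.00276).

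Mesp1 (NM_008588), a helix-loop-helix factor of early cardiac mesoderm, was dim throughout. It measured 3.14% and 6.17% in untreated cells, 29.9% and 20.4% after 8 h of 4OHT, and 21.3% and 16.3% after 10 h. Every 4OHT array lay above both untreated arrays, but the standard error was larger than for T, Eomes or Evx1. The change was 2.49 ± 0.50 at 8 h, 5.61-fold (adjusted p = 0.0207), and 2.08 ± 0.50 at 10 h, 4.24-fold (adjusted p = 0.0300). The 8 h call was lost without untreated replicate 1 (adjusted p = 0.0911), without 4OHT 8 h replicate 1 (0.0932) or replicate 2 (0.0624), and with no filter on dim probes (0.0656). The 10 h call was lost without untreated replicate 1 (adjusted p = 0.126), without 4OHT 10 h replicate 1 (0.118) or replicate 2 (0.0879), and with no filter (0.0840). Under normexp the rise was 1.08 at 8 h and 0.87 at 10 h, and was called.

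Evx1 (NM_007966), a homeobox factor of the posterior streak, was measured well above background on all 8 arrays. It stood at 18.8% and 25.9% in untreated cells, 225% and 165% after 8 h of 4OHT, and 207% and 194% after 10 h. On the log2 scale the gap between untreated and 4OHT arrays exceeded the difference within any group. The change was 3.13 ± 0.23 at 8 h, 8.73-fold (adjusted p = 0.000929), and 3.19 ± 0.23 at 10 h, 9.10-fold (adjusted p = 0.000703). Under normexp the rise of Evx1 was 2.35 at 8 h.

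Cdx1 (NM_009880), a homeobox factor of the posterior embryo and a known WNT and retinoic acid target, had the largest standard error of the 5. It measured 134% and 88.0% in untreated cells, 336% and 179% after 8 h of 4OHT, and 419% and 204% after 10 h. All 4OHT arrays lay above both untreated arrays, while replicate 1 exceeded replicate 2 in every group. The change was 1.18 ± 0.52 at 8 h (95% interval −0.11 to 2.46, adjusted p = 0.170) and 1.43 ± 0.52 at 10 h (0.15 to 2.71, adjusted p = 0.0942). Within replicate 1 and replicate 2 it was 1.33 and 1.03 at 8 h, and 1.64 and 1.21 at 10 h. With the replicate number as a block Cdx1 was called at 8 h (adjusted p = 0.00285) and at 10 h (0.00139), which made 5 of 5 members called higher at each time, beside 14.4% and 17.5% of all genes in that fit. The 12 primitive endoderm markers, by their median and their summed level, differed with the replicate number too. Their median log2 level was −0.60 and −1.89 after PD0325901, −0.53 and −2.20 in untreated cells, −0.53 and −2.09 at 8 h and −0.54 and −2.18 at 10 h (replicate 1 and replicate 2). Their summed level, to which Sparc gave the most, was 407 and 296 times the 75th percentile after PD0325901, 306 and 255 in untreated cells, 362 and 290 at 8 h and 375 and 314 at 10 h. The part of these markers in the Cdx1 values was not tested.

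Mixl1 (NM_013729) and Cdx4 (NM_007674), both homeobox factors, were not well above background on any of the 8 arrays. Mixl1 had signals of 0.480% to 3.79% and Cdx4 of 0.564% to 3.05% of the 75th percentile. The dimmest spot well above background on an array lay at 2.04% to 2.46% in replicate 1 and at 4.48% to 5.46% in replicate 2, so a lower level of these transcripts was not detectable here. No fold is given for them. Cdx2, the paralog of Cdx1 and Cdx4, measured 173% and 274% after PD0325901, 4.72% and 8.01% in untreated cells, 426% and 608% at 8 h, and 419% and 775% at 10 h. Its change at 10 h was 6.53 ± 0.43, 92.7-fold (adjusted p = 0.000543), the same direction as Cdx1.

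The upstream windows of the 4 members called at both 4OHT times are printed because these genes rose together. Each is the 250 bases before the annotated start of the gene, 5′ to 3′ on the gene's own strand, from RefSeq's table of the mouse build GRCm38.p6, T from chr17:8434173-8434422 (plus strand), Eomes from chr9:118477939-118478188 (plus), Mesp1 from chr7:79793591-79793840 (minus) and Evx1 from chr6:52313248-52313497 (plus). Capitals mark AGGTGT, the core of the T-box element that T and Eomes bind, and TCAAAG, the core of the TCF/LEF element of WNT signalling, on either strand (ACACCT and CTTTGA where reversed).
T: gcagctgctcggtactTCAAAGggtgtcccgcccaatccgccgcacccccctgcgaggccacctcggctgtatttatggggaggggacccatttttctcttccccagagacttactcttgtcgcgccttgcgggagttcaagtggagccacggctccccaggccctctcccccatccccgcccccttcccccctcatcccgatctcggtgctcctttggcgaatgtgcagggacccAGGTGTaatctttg
Eomes: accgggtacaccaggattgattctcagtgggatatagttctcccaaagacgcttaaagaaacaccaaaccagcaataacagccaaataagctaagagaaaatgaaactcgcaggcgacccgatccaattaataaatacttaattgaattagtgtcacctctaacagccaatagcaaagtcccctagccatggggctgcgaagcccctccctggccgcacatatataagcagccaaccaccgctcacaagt
Mesp1: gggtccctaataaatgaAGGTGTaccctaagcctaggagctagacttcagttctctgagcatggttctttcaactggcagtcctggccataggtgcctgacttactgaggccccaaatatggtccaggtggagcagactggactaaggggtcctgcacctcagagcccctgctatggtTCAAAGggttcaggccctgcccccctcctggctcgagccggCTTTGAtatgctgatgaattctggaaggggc
Evx1: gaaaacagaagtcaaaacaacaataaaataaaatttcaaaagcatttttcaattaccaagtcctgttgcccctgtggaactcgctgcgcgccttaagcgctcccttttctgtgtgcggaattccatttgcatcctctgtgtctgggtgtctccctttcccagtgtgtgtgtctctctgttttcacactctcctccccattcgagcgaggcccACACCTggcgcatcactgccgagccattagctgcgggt

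The window of T held AGGTGT with its first base 14 bases before the start and TCAAAG 234 bases before it. That of Mesp1 held AGGTGT at 233 bases and TCAAAG at 72 bases and, reversed, at 31 bases. The window of Evx1 held a reversed AGGTGT at 38 bases, and that of Eomes held neither. In Cdx4, which was not measured well above background, AGGTGT lay 139 bases before the start. No match overlapped another. Of all 32851 promoter windows of this length, 11.8% held AGGTGT and 13.8% held TCAAAG. Neither TGANTCA, the AP-1 element (6.75% of windows), nor CCGGAA, the core of the ETS element (12.0%), occurred in the windows of T, Eomes, Mesp1, Evx1 or Cdx4. The window of Cdx2, searched as well, held none of these motifs, AGGTGT and TCAAAG included. Only 5 of the 7 members had a window to search, and Cdx1 and Mixl1 had none. The motifs were picked with the expression results known, and a match says only that the letters are present.

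The comparison of 10 h with 8 h of 4OHT asked whether the members moved further over the last 2 h, and no member was called. T changed by 0.30 (95% interval −0.32 to 0.91), with 10 h arrays at 36.8% and 62.3% lying on either side of the 8 h arrays at 38.5% and 39.5%. The intervals were −0.33 to 0.30 for Eomes, −0.51 to 0.63 for Evx1, −1.64 to 0.83 for Mesp1 and −1.03 to 1.53 for Cdx1. The arrays of the 2 times overlapped for each of the 5 genes, and the share of all genes with such overlap was not counted. In that limma comparison 0 genes were called, 0.00% of those tested, with 1487 at an unadjusted p under 0.05 and 0 called with the replicate block.

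PD0325901 for 2 h after 8 h of 4OHT was compared with 10 h of 4OHT without it. Mesp1, Evx1 and Eomes fell, and T and Cdx1 were lower without being called. T changed by −1.02 ± 0.25 and Eomes by −0.96 ± 0.13, so their calls differ while the sizes are alike. Differences between genes were not tested. The labels do not say whether 4OHT remained, so effects of PD0325901 and of 4OHT removal cannot be told apart. The median change of the 5 members was −1.02, beside −0.03 over all genes tested. This comparison shares its 10 h arrays with that of 10 h and untreated cells.

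Evx1 measured 40.5% and 31.2% after PD0325901, against 207% and 194% at 4OHT 10 h. The inhibited arrays lay far below, with little difference within a group. Evx1 fell by 2.50 ± 0.23 on the log2 scale, 5.64-fold (adjusted p = 0.00528). Against untreated cells, at 18.8% and 25.9%, Evx1 was 0.69 higher (95% interval 0.12 to 1.26), which was not called (adjusted p = 0.103). Its fall against 10 h was called in the fit, in all 9 alternative settings and without each of the 8 arrays in turn.

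Mesp1 measured 3.84% and 1.68% after PD0325901, of which the second was not well above background, against 21.3% and 16.3% at 4OHT 10 h. Both inhibited arrays were far below the 10 h arrays, and they overlapped the untreated ones, at 3.14% and 6.17%. The change was −2.88 ± 0.50 on the log2 scale, 7.34-fold (adjusted p = 0.0329). The call was lost when any array of 4OHT 8 h, 4OHT 10 h or PD0325901 was left out, at adjusted p values of 0.0541 (without PD0325901 replicate 1), 0.111 (PD0325901 replicate 2), 0.0599 (4OHT 8 h replicate 1 and also replicate 2), 0.136 (4OHT 10 h replicate 1) and 0.124 (4OHT 10 h replicate 2), without a filter on dim probes (0.114) and in a fit to the compared groups alone (0.0989). Under normexp the change was −0.85 and called. Against untreated cells Mesp1 changed by −0.79 (95% interval −2.03 to 0.44, adjusted p = 0.328), with overlapping arrays.

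Eomes measured 61.8% and 53.1% after PD0325901, against 117% and 105% at 4OHT 10 h. The inhibited arrays lay between the 4OHT and the untreated arrays without overlap. The change was −0.96 ± 0.13, 1.94-fold (adjusted p = 0.0161). The call was lost without PD0325901 replicate 1 (0.0541), PD0325901 replicate 2 (0.0799), 4OHT 10 h replicate 1 (0.0817) or 4OHT 10 h replicate 2 (0.0696), without a filter on dim probes (0.0732), in a fit to the compared groups alone (0.0742), and with the mean of both probes, where the change was −0.76 (adjusted p = 0.0855). The dimmer probe, at 14.0% and 8.86% after PD0325901 against 18.7% and 14.4% at 10 h, was not called (−0.56 ± 0.26, adjusted p = 0.309). Eomes remained above untreated cells by 1.04 ± 0.13, 2.05-fold (adjusted p = 0.00761), and its dimmer probe by 1.85 ± 0.26 (adjusted p = 0.0122).

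T measured 25.7% and 21.6% after PD0325901, against 36.8% and 62.3% at 4OHT 10 h. Both inhibited arrays were below both 10 h arrays, but in percent the 10 h arrays differed more from each other than the lower of them did from either inhibited array. The change was −1.02 ± 0.25 (95% interval −1.64 to −0.41, adjusted p = 0.0806), and it was −0.52 within replicate 1 and −1.53 within replicate 2. T passed the threshold with signals centred on the array median (adjusted p = 0.0451), with an intensity trend and robust prior (0.0475), and without 4OHT 10 h replicate 1 (0.0226, change −1.40). T stayed above untreated cells by 2.87 ± 0.25, 7.31-fold (adjusted p = 0.00295), a change of 0.98 under normexp.

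Cdx1 measured 264% and 144% after PD0325901, against 419% and 204% at 4OHT 10 h. The groups overlapped, since replicate 1 of the inhibited cells exceeded replicate 2 at 10 h. The change was −0.58 ± 0.52 (95% interval −1.86 to 0.70, adjusted p = 0.590), and it was −0.66 within replicate 1 and −0.50 within replicate 2. With the replicate block it was called (adjusted p = 0.0418), which made 4 of 5 members lower, beside 5.52% of all genes in that fit. Against untreated cells Cdx1 was 0.85 ± 0.52 higher (adjusted p = 0.315, and 0.00958 with the block).

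**Figure D2:**
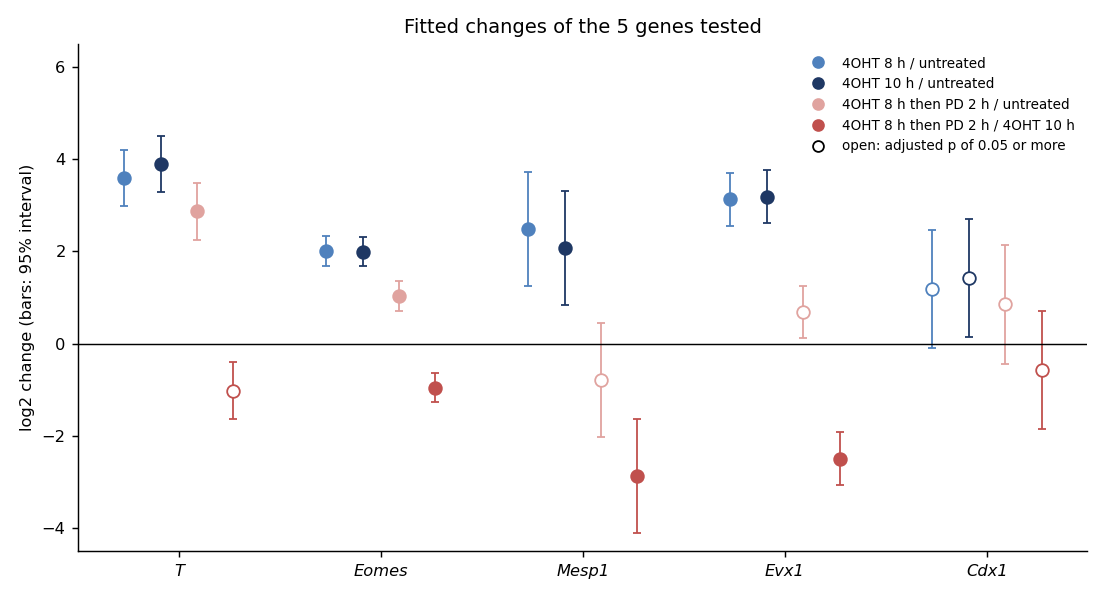
Fitted log2 change of the 5 genes tested in 4 comparisons, with 95% intervals; filled points are called at an adjusted p under 0.05. T and Eomes are called above untreated cells even after PD0325901, and Evx1, Mesp1 and Eomes are called below 4OHT 10 h.

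Set against 8 h of 4OHT, the time at which PD0325901 was added, the same 3 members were called lower, beside 3.07% of all genes tested. Mesp1 changed by −3.28 ± 0.50 (9.73-fold, adjusted p = 0.0215), Evx1 by −2.44 ± 0.23 (5.42-fold, adjusted p = 0.00604) and Eomes by −0.97 ± 0.13 (1.96-fold, adjusted p = 0.0144). T changed by −0.73 ± 0.25 (adjusted p = 0.167) and Cdx1 by −0.33 ± 0.52 (adjusted p = 0.771). The call of Mesp1 was lost without PD0325901 replicate 2 (0.0796), 4OHT 8 h replicate 1 (0.0973) or 4OHT 8 h replicate 2 (0.0801), with no filter (0.0819) and in a fit to the compared groups alone (0.0826). That of Eomes was lost without PD0325901 replicate 1 (0.0522), PD0325901 replicate 2 (0.0743) or 4OHT 8 h replicate 1 (0.0644), with no filter (0.0696) and in a fit to the compared groups alone (0.0872), while T was called without either 4OHT 10 h array (0.0444).

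Against untreated cells, 2 of the 5 members, T and Eomes, were called higher after PD0325901, beside 7.16% of all genes tested. With the replicate block Cdx1 joined them, beside 11.7% of all genes in that fit. The median change of the 5 members was 0.85, beside −0.07 over all genes tested.

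The excess over untreated cells that was left after PD0325901, as percent of the excess at 4OHT 10 h on the linear scale and within a replicate number, differed between members. It was 66.7% and 31.3% for T (replicate 1 and replicate 2), 45.8% and 48.5% for Cdx1, and 37.9% and 32.5% for Eomes by its brighter probe. It was 11.5% and 3.16% for Evx1, and 3.85% and −44.1% for Mesp1, where the negative value comes from a signal not well above background. The dimmer Eomes probe had signals of 14.0% and 8.86% after PD0325901, 18.7% and 14.4% at 10 h, and 3.42% and 2.81% in untreated cells. By those signals more of the Eomes excess was left than by the brighter probe. In both replicates Evx1 and Mesp1 therefore kept less of their excess than T, Cdx1 and Eomes, a difference between genes that was not tested. Cdx2 kept 40.7% and 34.7%. As percent of the excess at 4OHT 8 h, when the inhibitor was added, T kept 63.5% and 51.0%, Cdx1 64.4% and 61.7%, Eomes 35.4% and 33.9%, Evx1 10.5% and 3.82%, and Mesp1 2.60% and −31.5%. The value of T in replicate 2 thus differed by over 1.5 times between the 2 baselines, while Evx1 and Mesp1 stayed below the other 3 genes with either. The 2 transcripts chosen as ERK responses lost all of it, Egr1 (−2.81% and −3.37%), an immediate early gene, and Dusp6 (−13.0% and −12.7%), an ERK phosphatase gene, whose changes against 10 h were −5.39 ± 0.29 (adjusted p = 0.00137) and −5.85 ± 0.09 (adjusted p = 4.85e-05).

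**Figure D3:**
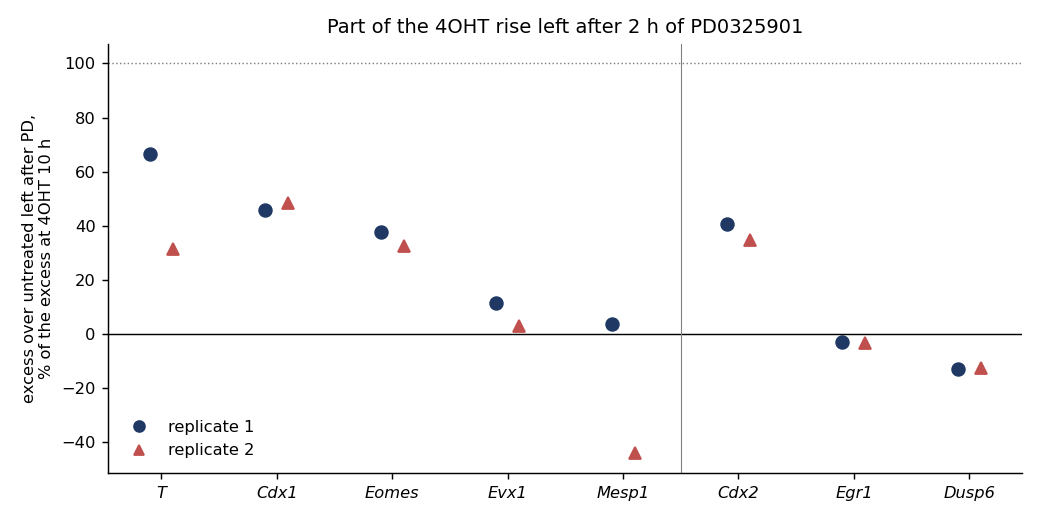
Excess over untreated signal left after 2 h of PD0325901, as percent of the excess at 4OHT 10 h, per replicate number, for the 5 genes tested and for Cdx2, Egr1 and Dusp6 to the right of the line; the dotted line marks 100%. T, Cdx1, Eomes (brighter probe) and Cdx2 keep 31.3% to 66.7%, while Evx1 and Mesp1 lie at or below 11.5%.

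The genes whose normalized log2 values over the 8 arrays were most like those of a member differed between members. The 8 points share 4 groups, so Pearson's r is a description, taken over 2646 genes whose group means span at least 1. For T they were Tnfrsf12a (r = 0.993), Smtn (0.992) and Glud1 (0.992). For Eomes they were Robo4 (r = 0.996), Wsb2 (0.995) and Zbtb32 (0.994), and for Evx1 Hoxd13 (0.995), Dipk2a (0.994) and Gem (0.990). For Mesp1 they were Ier5 (r = 0.969), Zfp459 (0.968) and E2f8 (0.962), and for Cdx1 Pea15a (0.983), Itpka (0.982) and Meox1 (0.981). Among the members themselves Eomes and Evx1 were most alike (r = 0.956) and T and Eomes next (0.945), whereas T and Mesp1 stood at 0.554.

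Other genes of streak formation went both ways. Of 20 ligands, receptors and antagonists that induce or limit the streak, 16 were tested, 2 were called higher and 7 lower at 8 h, beside 10.3% and 11.3% of all genes, and with a median of −0.41 beside −0.04 over all genes. Bmp4, which promotes mesoderm, rose by 2.51 ± 0.18 (adjusted p = 0.000895) and Wnt5a by 1.11 ± 0.29 (adjusted p = 0.0442). Nodal, the ligand that specifies mesendoderm, changed by −1.41 ± 0.11 (adjusted p = 0.00121) and its antagonist Lefty1 by −5.77 ± 0.36 (adjusted p = 0.00063). After PD0325901, against 10 h, Nodal was 1.15 ± 0.11 higher (adjusted p = 0.00638) and Bmp4 changed by −3.55 ± 0.18 (11.7-fold, adjusted p = 0.00128), among 5 called higher and 2 lower, beside 3.30% and 2.83% of all genes.

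Of 20 posterior and caudal genes 13 were tested, 4 of them called higher (Cdx2, Cyp26a1, Sp5 and Gbx2) and 3 lower at 8 h (10.3% and 11.3% of all genes), with a median of −0.24. Sp5, a direct WNT target, rose by 3.50 ± 0.11 (adjusted p = 0.000165) and changed by −1.63 ± 0.11 after PD0325901 against 10 h (adjusted p = 0.0021), among 3 called lower and 2 higher (2.83% and 3.30% of all genes). Of 21 nascent mesoderm genes 17 were tested, 6 called higher and 4 lower at 8 h (median 0.02), and 5 lower and 1 higher after PD0325901, beside the same shares. Twist1 rose by 3.13 ± 0.23 at 8 h (adjusted p = 0.000898), while Snai2, a factor of epithelial-mesenchymal transition, changed by −1.97 ± 0.25 (adjusted p = 0.00494). Of 15 genes of the anterior streak and definitive endoderm 12 were tested, 1 called higher (Otx2) and 4 lower at 8 h (median −0.27), beside the same shares of all genes. Gsc, the anterior streak factor goosecoid, was at least 7.26-fold lower at 10 h, where it was not well above background, than in untreated cells (adjusted p = 0.00103). The bound takes, for each 10 h array, the higher of the probe's signal and the dimmest signal that still counts as well above background.

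**Figure D4:**
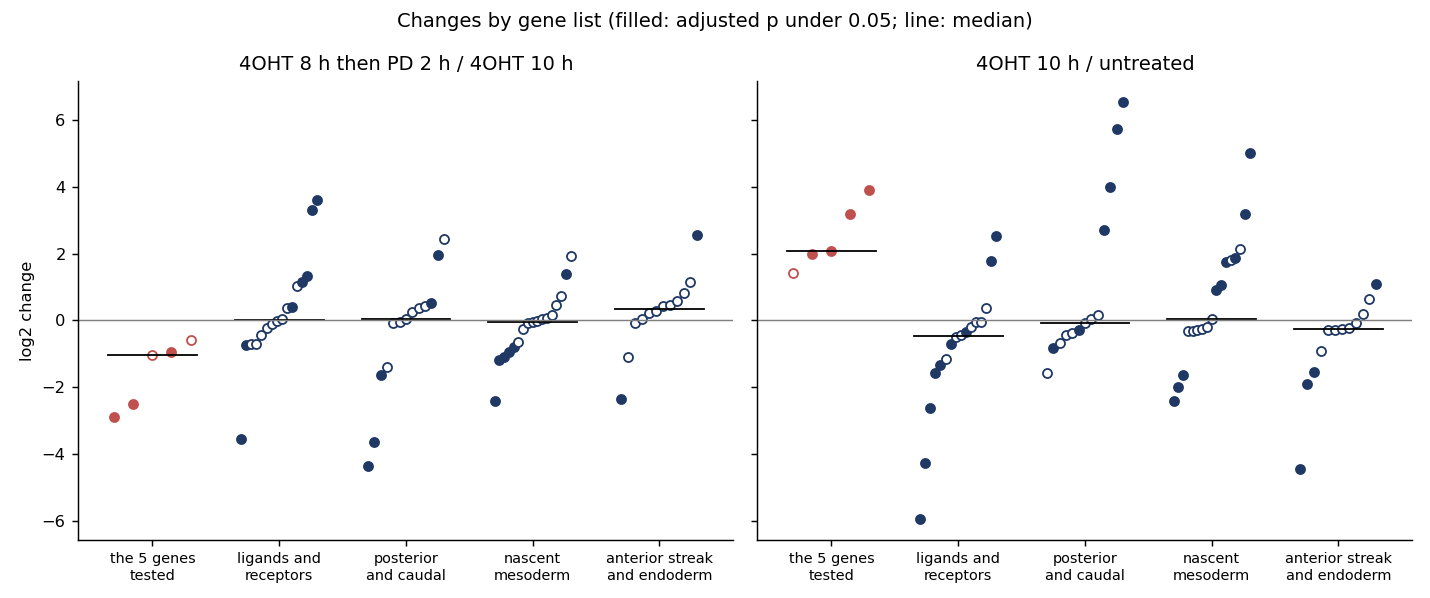
Log2 change of each tested gene in the 5 members and in the 4 lists, after PD0325901 against 4OHT 10 h (left) and at 4OHT 10 h against untreated cells (right); filled points are called and the line is the median. The members' medians are −1.02 and 2.08, while the lists spread to both sides of 0.

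Eomes and Cdx2 also mark trophoblast. Of 11 trophoblast markers, Cdx2 among them and Eomes left out, 10 were tested, 4 called higher and 3 lower at 8 h, beside 10.3% and 11.3% of all genes. Their summed level was 57.2 to 57.4 times the 75th percentile after PD0325901, 20.6 to 23.6 in untreated cells, 43.9 to 48.6 at 8 h and 56.9 to 69.8 at 10 h. Krt18, an epithelial keratin, gave the most to this sum and rose by 1.70 ± 0.17 at 8 h (adjusted p = 0.00249). The others called higher at 8 h were Hand1, Cdx2 and Tead4, and those called lower were Esx1, Tfap2c and Ascl2. Hand1 was near background on both untreated arrays and Elf5 was not tested. The part of these markers in the Eomes values was not tested. Of 10 fibroblast (feeder) markers 5 were tested, 2 called higher (S100a4 and Thy1) and 1 lower (Fbln2) at 8 h, beside the same shares. Their summed level was 14.8 to 26.7 times the 75th percentile after PD0325901, 2.41 to 3.89 in untreated cells, 18.4 to 38.4 at 8 h and 20.2 to 42.4 at 10 h. The sum followed Thy1, which rose by 3.50 ± 0.61 at 8 h (adjusted p = 0.0131), while the median log2 level of the 5 markers was −2.83 and −2.58 after PD0325901, −2.46 and −2.07 in untreated cells, −2.63 and −2.77 at 8 h and −2.98 and −2.64 at 10 h. The markers Col3a1, Dcn, Lum, Postn and Twist2 were too dim to be tested. Of 8 neural progenitor markers 6 were tested, with 1 called higher and 2 lower at 8 h, beside the same shares. Their summed level was 4.34 to 4.67 after PD0325901, 3.19 to 3.21 in untreated cells, 5.31 to 5.50 at 8 h and 5.09 to 5.43 at 10 h. This sum followed Nes, which rose by 1.43 ± 0.12 at 8 h (adjusted p = 0.0014). The median log2 level of the 6 was −2.01 and −1.83 after PD0325901, −1.66 and −1.48 in untreated cells, −1.96 and −1.65 at 8 h and −2.06 and −1.96 at 10 h. The part of either list in the members' values was not tested. All 10 ESC markers were tested. Of these, 2 were called higher (Dppa4 and Utf1) and 2 lower (Nanog and Klf4) at 8 h, beside the same shares. Nanog changed by −2.59 ± 0.19 at 8 h (adjusted p = 0.000935) and by −3.10 ± 0.19 at 10 h (adjusted p = 0.000446). Utf1 rose by 0.94 ± 0.08 at 8 h (adjusted p = 0.00134).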

How the data were processed

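RNA of mouse ESCs, 100 ng of total RNA per sample per the labels' protocols, went onto 8 arrays, Agilent's design 028005, all on 1 slide. Per the file headers, Feature Extraction 11.0.1.1 made the deposited processed signal, an intensity corrected for background and not scaled between arrays. The deposited files also hold the median intensity and median background intensity of each spot, and marks for spots well above background, saturated (0 on each array) or outliers (169 to 249 per array, left out). The series value table holds the same processed intensity, to within 0.497%. The labels name Cy5 and the files hold Agilent's green channel, which alters no direction with 1 channel per array.

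Accessions were matched to RefSeq's table of GRCm38.p6. Of the non-control probes, 27656 of 55681 had 1 symbol and 28025 none. The log2 processed signal, less the 75th percentile of its array, was fitted with limma 3.58.1 (R 4.3.3, with package data.table at 1.17.8) as a mean per group over the 8 arrays, with 4 residual and 1.72 prior degrees of freedom. Python 3.11.15 with numpy 2.4.6, pandas 2.3.3 and matplotlib 3.10.9 read and drew the values. Moderated tests were two-sided, with Benjamini-Hochberg adjustment over 22686 or 22687 genes and a threshold of 0.05. Of the 22687, 14493 had a symbol, and the others were array identifiers counted as genes. Kept probes numbered 30329, and the brightest stood for its gene. The number of arrays limits the precision, and 2 per group is the smallest that gives a spread.

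The labels number the replicates 1 and 2, which are also rows of the slide. Deviations from group means correlated at 0.287 to 0.356 between same-numbered arrays of all 6 pairs of groups. The main fit nonetheless held no replicate block. Its standard errors, intervals and calls therefore ignore what same-numbered arrays share. The fit with the number as a block is given where it changes a member's call. The alternatives were quantile normalization, median centring, normexp (offset 50) on median signals, no filter on dim probes, only the groups compared, an intensity trend with robust prior, the block, the mean of all kept probes, the value table, and each array left out. The method was tested on simulated data with noise drawn independently for each array. That test therefore does not cover the correlation between same-numbered arrays. The members, lists and motifs were chosen with earlier results of these data known. Genes named beside the members were Cdx2, Dusp6 and Egr1, genes of the lists mainly by smallest adjusted p, and the 3 genes most like each tested member.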

Additional observations from a re-analysis of the deposited data

How the results depend on the processing

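Of the members' changes under all alternatives 457 kept their direction and side of the threshold, 33 lost the call, 10 gained one and 10 changed sign, none of the last among called changes. The rises of T, Eomes and Evx1 at 4OHT 8 h and 10 h, those of T and Eomes after PD0325901 against untreated cells, and the fall of Evx1 against 10 h held in all 17 settings. Sign changes were those of Mesp1 after PD0325901 against untreated cells under normexp (0.021), of Eomes at 10 h against 8 h under median centring (0.037), and of values with single arrays left out, with ranges of −0.78 to 0.12 for Cdx1 after PD0325901 against 8 h, and at 10 h against 8 h of −0.083 to 0.68 for T, −0.15 to 0.12 for Eomes, −0.17 to 0.28 for Evx1 and −0.27 to 0.77 for Cdx1. With no filter on dim probes, which tests more genes, 2277 genes were called at 8 h, 3274 at 10 h, and after PD0325901 338 against 10 h, 348 against 8 h and 1052 against untreated cells. With only the groups compared, which leaves 4 arrays in a fit, the counts were 2751, 3973, 333, 318 and 1404. Under either setting Evx1 was the only member called after PD0325901 against 10 h, and the only one against 8 h. With no filter, the genes called against 10 h and 8 h were 338 of 36983 and 348 of 36982 tested. With only the groups compared they were 333 of 22687 and 318 of 22686. With the replicate block 2789, 3130 and 6204 genes were called in the PD0325901 comparisons (against 10 h, 8 h and untreated), and beside those given with Cdx1 above it changed no other call of a member. With each array left out the counts were 2235 to 4252 at 8 h (members called 3 to 4), 3170 to 5807 at 10 h (3 to 4), and after PD0325901 370 to 942 against 10 h (1 to 3), 386 to 1057 against 8 h (1 to 4) and 1186 to 2592 against untreated cells (2 in each), and 0 to 4 at 10 h against 8 h. Each array of the 2 groups compared moved its count over all genes by over 1.5 times, as did either 4OHT 8 h array for PD0325901 against 10 h (864). The lowest counts came without 4OHT 8 h, 4OHT 10 h, 4OHT 10 h, 4OHT 8 h and PD0325901 replicate 2, in the order given. Median centring moved the genes called higher and lower to 3055 and 1526 at 8 h (main setting 2344 and 2570), 4876 and 1881 at 10 h (2949 and 3332), 497 and 693 after PD0325901 against 10 h (748 and 643), and 1902 and 932 against untreated cells (1625 and 1902), and the median change of all genes was then 0.09 at 8 h, 0.14 at 10 h, −0.11 after PD0325901 against 10 h and 0.04 against untreated cells (main setting −0.04, −0.05, −0.03 and −0.07). Causes of these differences were not tested. Dim signals limit Mesp1, T in untreated cells, Mixl1 and Cdx4.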

Other observations

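Several list genes not described above moved at 4OHT 8 h. Cyp26a1, which degrades retinoic acid in the posterior embryo, rose by 5.61 ± 0.10 (adjusted p = 5.74e-05, with 1 of 2 untreated arrays well above background) and Gbx2, a homeobox factor of the early posterior embryo, by 2.69 ± 0.17 (adjusted p = 0.000609). After PD0325901 against 10 h Cyp26a1 changed by −3.65 ± 0.10 (adjusted p = 0.000279) and Gbx2 by −4.36 ± 0.17 (adjusted p = 0.000589). Hand1, a factor of extraembryonic mesoderm and trophoblast, was at least 13.3-fold higher at 8 h than in untreated cells, where it was not well above background (adjusted p = 0.000214), and changed by −0.95 ± 0.17 after PD0325901 against 10 h (adjusted p = 0.0334). Mesp2, the paralog of Mesp1 that acts in somite formation, rose by 1.20 ± 0.14 at 8 h (adjusted p = 0.00386) and changed by −0.81 ± 0.14 after PD0325901 against 10 h (adjusted p = 0.0332). Otx2, an anterior factor, rose by 0.87 ± 0.17 at 8 h (adjusted p = 0.0205) and changed by −2.34 ± 0.17 after PD0325901 against 10 h (adjusted p = 0.0028).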
